A study of Mus musculus with 6 samples.

Results

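Kinesins and dyneins are the motor proteins that walk along microtubules, and the genes described here encode them together with their light chains, binding partners and the dynactin subunits that couple dynein to cargo. The 47 members were chosen by gene symbol from a table of 11339 genes: every symbol that begins with Kif, Klc, Dync, Dynl or Dctn in the form of these families was taken. The family was looked at because *Kif19a* had the largest decrease of its kind, so *Kif19a* itself was singled out by its *Mll1KO*/WT difference and is described by its values alone, with no test. The mouse annotation GENCODE vM21 has 70 protein-coding genes with such symbols, and the other 23, among them *Kif11*, *Kif18a*, *Kif18b*, *Kif20a*, *Kif23* and *Kif7*, were not analysed here. The table was limited by the authors to genes with a CPM above 5 in at least 5 samples, so every member described had passed that filter. A gene well expressed in 3 samples only would not have passed it.

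The study asked what the histone methyltransferase MLL1 does in the developing mouse retina. RNA was sequenced from retinas at P14, when the mouse retina has finished making neurons. The *Mll1KO* group has the genotype MLL1 fl/fl with Chx10-Cre on C57Bl6/J. There Cre recombinase is expressed in retinal progenitor cells and removes the floxed part of *Mll1* from most of their descendants. The WT group is wild type of the same strain, so the floxed alleles, the Cre transgene and the loss of MLL1 cannot be told apart in this comparison. Each group had 3 samples, a, b and c, and each sample was pooled from 2 retinas. The p-values given below measure the spread between these samples. Values are RPKM, the reads of a gene scaled by the authors to its length and to the library total. From these values 19323512 to 23836033 reads were recovered for the WT libraries and 17961097 to 23348922 for the *Mll1KO* libraries, and the members had between 137 and 44926 reads in a library. Differences are given on the log2(RPKM + 1) scale as *Mll1KO* minus WT, which understates the change of genes with a low RPKM. They were tested with limma over all 11339 genes, and a gene is called higher or lower where the Benjamini-Hochberg adjusted p is under 0.05.

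*Kmt2a*, the symbol under which *Mll1* is listed, is the gene targeted in *Mll1KO*. It was measured at 36.1, 36.9 and 34.6 RPKM in WT (samples a, b and c, in this order throughout) and at 22.9, 20.4 and 22.3 RPKM in the *Mll1KO* samples. The highest *Mll1KO* sample was well under the lowest WT sample (log2 difference -0.69, SE 0.05, limma adjusted p = 2.77e-05). The floxed exons 3 and 4 make up 17.0% of the length behind this RPKM, and Cre leaves the other exons in place. By the paper's account recombination was also incomplete. Some RNA with the floxed region was left in *Mll1KO* retinas at P14, and a few cells of older *Mll1KO* retinas still held it. How much each adds to the *Kmt2a* value was not tested. All 9 genes of the list used to check the tissue were present. The libraries were not alike in every respect. *Xist*, the RNA made from the inactive X chromosome of females, was at 71.7, 75.8 and 72.5 RPKM in WT and at 129.6, 0.59 and 127.7 RPKM in *Mll1KO*, so the *Mll1KO* libraries differed from each other and from WT. Of the members only *Dynlt3* lies on the X chromosome. The pigment epithelium list also varied between libraries of 1 genotype: the summed RPKM of its 4 analysed genes was 201.9, 101.2 and 308.0 in WT and 87.75, 187.4 and 91.23 in *Mll1KO*, with 0 of 4 called by limma (1 at an unadjusted p under 0.05, 0 by limma-voom). Without WT sample b 3 of them were called, and without *Mll1KO* sample b 2.

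Kinesins carry cargo mostly towards the plus ends of microtubules, which in an axon means away from the cell body, and cytoplasmic dynein with its cofactor dynactin carries cargo the other way. In photoreceptors a kinesin of the KIF3 type and dynein-2 move proteins along the cilium that links the inner to the outer segment. Some kinesins do not transport cargo but shorten microtubules or work in the spindle of dividing cells, and KIF19A, a kinesin-8, shortens microtubules at the tips of motile cilia and thereby limits their length.

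*Kif19a* was lower in *Mll1KO* by a margin that no other analysed member approached. Its RPKM was 18.01, 19.65 and 16.28 in WT and 3.79, 4.20 and 4.79 in *Mll1KO*. The lowest WT sample was 3.40 times the highest *Mll1KO* sample, so the groups were far apart. The means were 17.98 ± 1.68 RPKM (SD, n = 3) in WT and 4.26 ± 0.503 RPKM (SD, n = 3) in *Mll1KO*, so that 23.7% of the WT level was left. These values rest on 1280 to 1746 reads in the WT libraries and 339 to 360 reads in the *Mll1KO* libraries. The log2 difference was -1.85, the lowest of all 11339 genes with all samples and a pseudocount of 1, and the next genes were *Hspa8*, a chaperone of the HSP70 family, at -1.84 and *Mab21l2*, a gene of eye development, at -1.65. *Kif19a* came 3rd from the lowest with a pseudocount of 5, 2nd with each library scaled to the same sum of rod markers, 5th without WT sample b, 3rd without *Mll1KO* sample a and 2nd without *Mll1KO* sample b or c. In bulk RNA from whole retinas, fewer cells that express a gene and less RNA per cell cannot be told apart.

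The place of *Kif19a* in the genome is chr11:114765388-114790739 on the plus strand (GRCm38, GENCODE vM21), with 4068 exon bases. No exon base is shared with another annotated gene on either strand, and 0 of its 4104 stretches of 50 bases occur in a transcript of another gene, so its reads have no other annotated source of that kind. *Kif19a* was the only kinesin-8 gene analysed. Of the 16 other protein-coding genes whose centres lie within 300 kb, 2 were analysed and 14 were not analysed here. Both analysed neighbours lie upstream on the same strand and both were lower, and they are given for their position, after their values had been seen. *Dnaic2*, which encodes an intermediate chain of axonemal dynein in motile cilia, ends 7498 bases before *Kif19a* begins. Its RPKM was 5.915, 5.878 and 5.007 in WT and 3.347, 3.120 and 3.681 in *Mll1KO*, with no overlap (log2 difference -0.59, SE 0.07, limma adjusted p = 0.000506). *Ttyh2*, a membrane protein gene of the Tweety family, was at 47.6, 49.8 and 45.1 RPKM in WT and 28.6, 29.2 and 27.2 RPKM in *Mll1KO*, again with no overlap (log2 difference -0.72, SE 0.05, limma adjusted p = 1.43e-05). The *Mll1KO* means of the neighbours were 60.4% and 59.8% of WT, a smaller decrease than that of *Kif19a*.

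**Figure D1:**
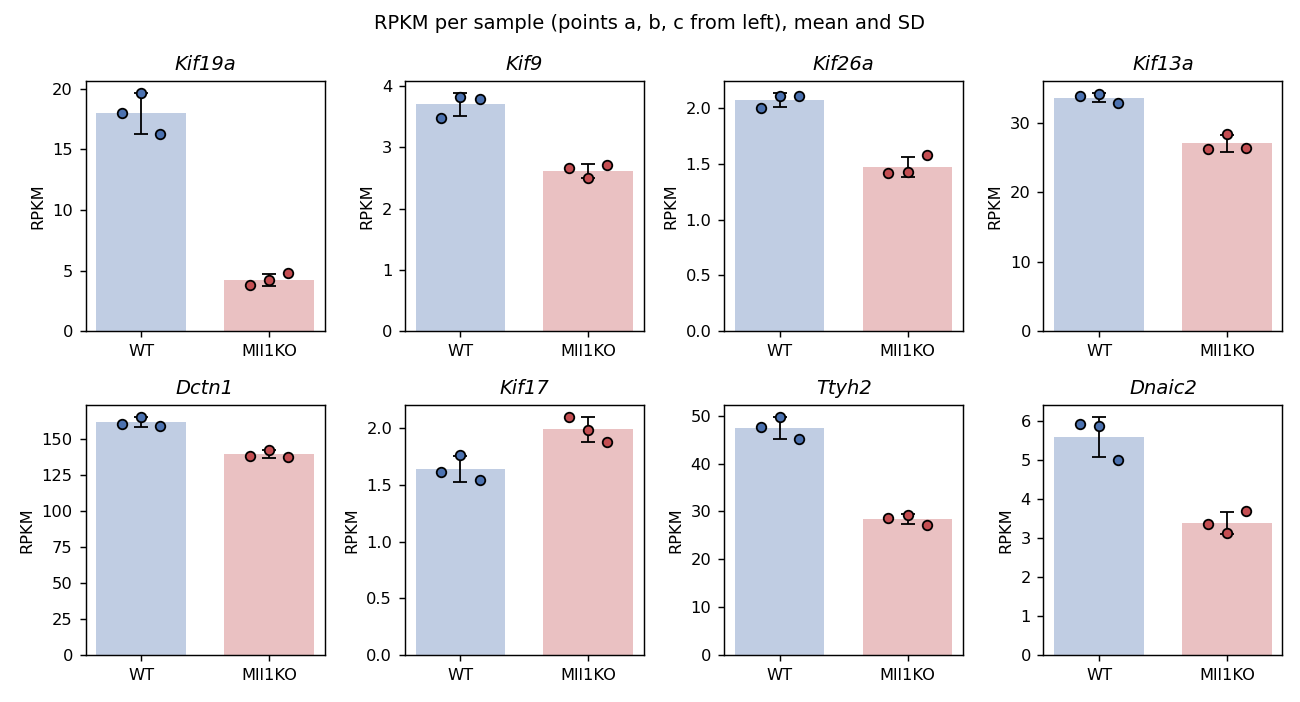
RPKM (y axis, from 0) in the 3 WT and 3 *Mll1KO* samples for *Kif19a*, for 5 other motor genes and for the neighbours *Ttyh2* and *Dnaic2*; points are samples a, b and c from left to right, bars are means and error bars are SD. *Kif19a* lies between 16.3 and 19.7 in WT and between 3.79 and 4.79 in *Mll1KO*, while *Kif9*, *Kif26a*, *Kif13a* and *Dctn1* differ by far less and *Kif17* is higher in *Mll1KO*.

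The other members analysed changed little with the authors' scaling. Of the 46 members other than *Kif19a*, 9 were called lower and 1 was called higher, where 14.5% of all genes were called lower, 8.81% higher and 23.3% either way. The share of these members called was 21.7%, close to that of all genes. The groups did not overlap for 22 of them, 17 lower and 5 higher in *Mll1KO*, a share of 47.8% beside 41.1% of all genes. The median log2 difference was -0.07 over these members and -0.03 over all genes. They ran from -0.38 for *Kif9* to 0.18 for *Kif17*, and 42 of the 46 lay within 0.25 of 0. Their standard errors were 0.04 to 0.08. For the 36 members not called, every 95% limma interval with the authors' scaling lay inside -0.34 to 0.32. With that scaling, a change by as much as 0.5 lay outside the interval of each. These intervals do not cover the choice of scaling. Scaling also sets part of the count of members called. Among all genes, 37.8% of the calls were higher with the authors' scaling and 53.1% with median-ratio factors. Under median-ratio factors 5 of the 46 members were called lower and 3 higher (*Kif17*, *Kifc3* and *Dync1i1*), beside 1126 and 1276 of all 11339 genes. Rod scaling, in which each library is set to the same summed RPKM of rod markers, moved the median of all genes to -0.32. It called 43 of the 46 lower, beside 9689 of all 11339 genes. Leaving out 1 library at a time gave between 4 and 8 of the 46 called lower. There were 4 without WT sample b, the lowest WT sample for pigment genes, and 8 without *Mll1KO* sample b, the sample with little *Xist*. All genes called lower were 1030 without WT sample b and 1178 without *Mll1KO* sample b, beside 1644 with all samples.

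**Figure D2:**
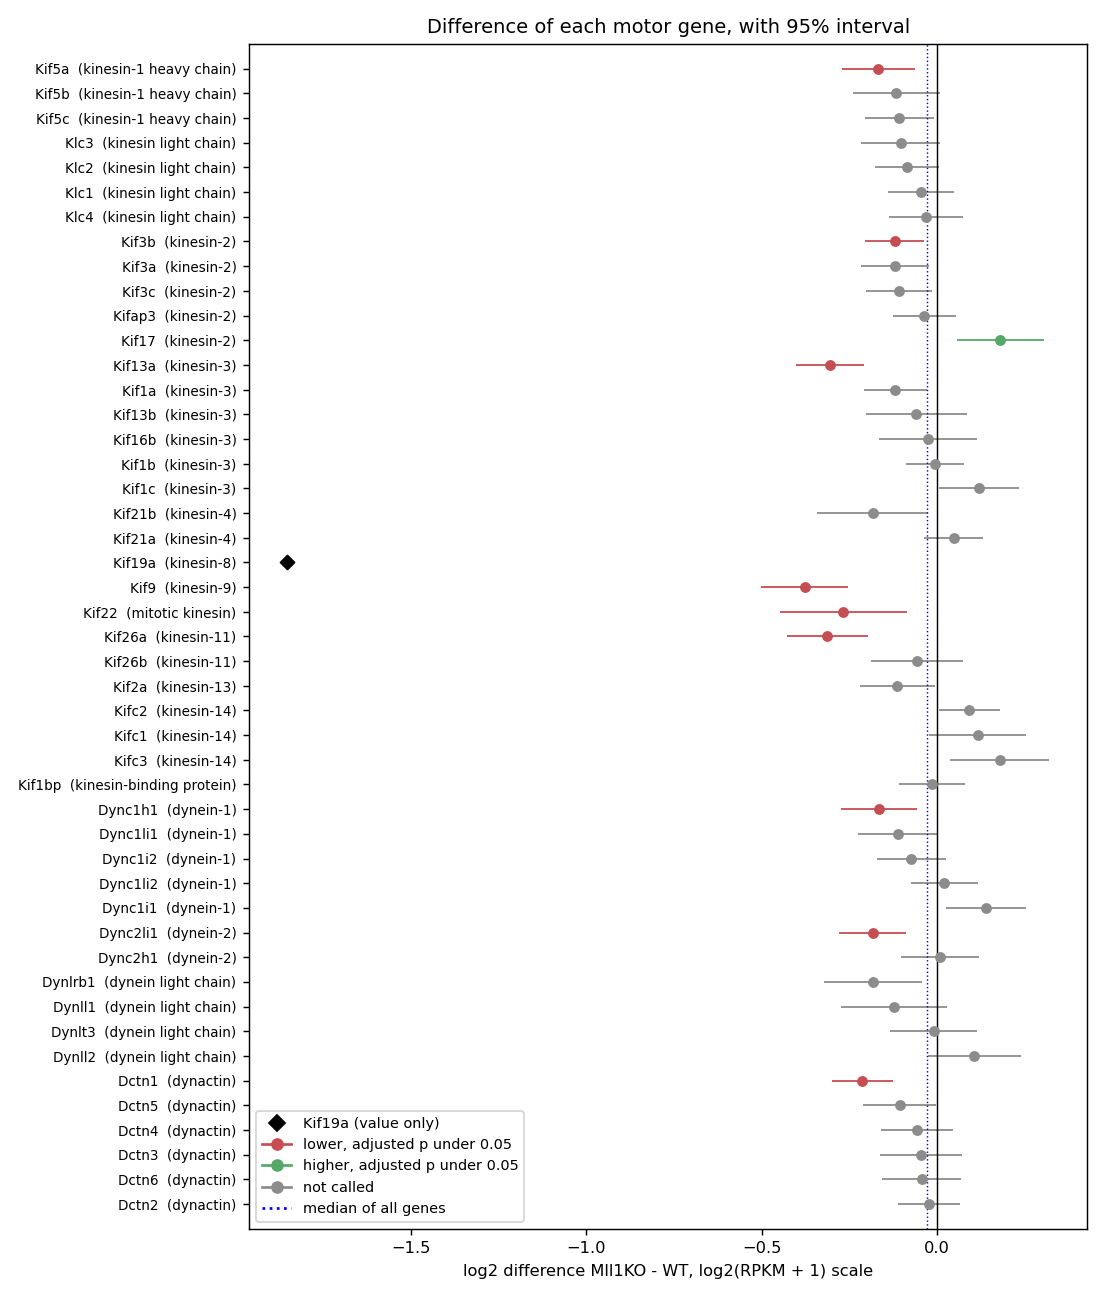
Log2 difference *Mll1KO* minus WT on the log2(RPKM + 1) scale (x axis) for all 47 members, ordered by role; lines are 95% limma intervals, colours show the call at an adjusted p under 0.05, the diamond is *Kif19a* (value only) and the dotted line is the median of all genes, -0.03. With the authors' scaling *Kif19a* stands at -1.85 and the other 46 members lie between -0.38 and 0.18. Some members near 0 change sign with median-ratio or upper-quartile factors. With rod scaling all members above 0 turn negative, *Kif17* at 0.18 among them.

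Of the members other than *Kif19a*, 4 were called lower with the authors' scaling and in each of the 14 alternative settings tried: *Kif9*, *Kif26a*, *Kif13a* and *Dctn1*. *Kif9*, a kinesin of motile cilia and sperm flagella, was at 3.484, 3.825 and 3.787 RPKM in WT and 2.655, 2.491 and 2.704 RPKM in *Mll1KO*, with no overlap. Its *Mll1KO* mean was 70.7% of WT (log2 difference -0.38, SE 0.06, limma adjusted p = 0.00127), at 217 to 371 reads a library. Its difference was the next lowest of the members after *Kif19a* with a pseudocount of 1, while with a pseudocount of 5 *Kif13a* was next, at -0.27. *Kif26a*, an atypical kinesin that binds microtubules without walking, was at 2.001, 2.105 and 2.110 RPKM in WT and 1.418, 1.427 and 1.577 RPKM in *Mll1KO*. The groups were apart by more than the width of either (log2 difference -0.31, SE 0.05, limma adjusted p = 0.00236), at 196 to 330 reads a library. Its paralog *Kif26b* was at 2.88 ± 0.164 RPKM in WT and 2.73 ± 0.173 RPKM in *Mll1KO* (SD, n = 3) and its groups overlapped. *Kif13a*, a kinesin-3 that moves endosomes, was more abundant, at 33.9, 34.2 and 32.9 RPKM in WT and 26.3, 28.4 and 26.4 RPKM in *Mll1KO*. No *Mll1KO* sample reached the WT range (log2 difference -0.31, SE 0.04, limma adjusted p = 0.00109), and here too the paralog *Kif13b* overlapped between the groups and had a log2 difference of -0.06.

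Kinesin-1, the main carrier of axonal cargo, is built from KIF5 heavy chains and KLC light chains. *Kif5a*, the neuronal heavy chain with the highest RPKM of the 3, was at 63.6, 62.0 and 65.6 RPKM in WT and 60.1, 55.5 and 54.3 RPKM in *Mll1KO*. The groups did not overlap but came close, and the call (log2 difference -0.17, SE 0.05, limma adjusted p = 0.0281) was lost with median-ratio factors. It was kept when *Mll1KO* sample a was left out and lost when any other sample was, with limma adjusted p of 0.0102 to 0.109 over the 6 fits. *Kif5b* and *Kif5c* had log2 differences of -0.12 and -0.11 and were not called. Of the light chains 0 of 4 were called by limma, beside 23.3% of all genes (0 at an unadjusted p under 0.05, 0 by limma-voom). *Klc1*, the most abundant, was at 137.9, 144.6 and 149.4 RPKM in WT and 139.9, 136.8 and 141.4 RPKM in *Mll1KO*, so the groups overlapped. *Klc3* was at 41.4 ± 1.65 RPKM in WT and 38.4 ± 2.17 RPKM in *Mll1KO* (SD, n = 3), also with overlap. *Klc3* shares 28.1% of its exon bases with *Ercc2* on the other strand, and reads of overlapping genes on opposite strands cannot be told apart without strand.

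The kinesin-2 genes, whose products drive transport into cilia, gave the call in the higher direction. *Kif17*, a kinesin-2 that works as a homodimer, had the lowest WT level of all members, at 1.61, 1.77 and 1.55 RPKM, and 2.10, 1.99 and 1.88 RPKM in *Mll1KO*. The difference of 0.18 (SE 0.06, limma adjusted p = 0.0426) rests on 137 to 225 reads a library and was called in 6 of the 14 alternative settings. Of the fits that leave out 1 sample, the one without WT sample b kept the call, and the limma adjusted p ran from 0.0493 to 0.122. It turned to -0.03 with rod scaling. *Kif3b*, a subunit of the heterotrimeric motor, was at 26.55, 26.17 and 26.51 RPKM in WT and 23.99, 23.98 and 24.66 RPKM in *Mll1KO*. All *Mll1KO* samples were lower by a narrow margin (log2 difference -0.12, SE 0.04, limma adjusted p = 0.0436), a call kept in 5 of the 14 alternative settings. It was lost whichever sample was left out, with limma adjusted p of 0.0789 to 0.113. Its partners *Kif3a* and *Kif3c* had log2 differences of -0.12 and -0.11, close to that of *Kif3b*, but were not called, and the associated protein *Kifap3* was at 41.3 ± 0.975 RPKM in WT and 40.3 ± 1.14 RPKM in *Mll1KO* (SD, n = 3), with overlap. *Kif3c* shares 40.7% of its exon bases with a gene on the other strand.

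Among the kinesins of synaptic cargo, *Kif1a*, which carries synaptic vesicle precursors and was the most abundant kinesin heavy chain, was at 127.7, 125.9 and 122.0 RPKM in WT and 117.8, 116.2 and 111.6 RPKM in *Mll1KO*. The groups did not overlap, and the difference of -0.12 missed the threshold (SE 0.04, limma adjusted p = 0.0567), while limma-voom and rod scaling called it lower. *Kif1b* was at 68.4 ± 0.453 RPKM in WT and 68.1 ± 1.88 RPKM in *Mll1KO* (SD, n = 3). Its difference of -0.01 had an interval of -0.09 to 0.08, and *Kif16b*, *Kif1c* and *Kif13b* were not called either. *Kif21b*, the second most abundant kinesin heavy chain, varied more within *Mll1KO*, at 83.5, 102.0 and 88.5 RPKM, than within WT, at 108.3, 104.8 and 97.6 RPKM. *Mll1KO* sample b fell inside the WT range, and the difference of -0.18 was not called (SE 0.07, limma adjusted p = 0.0887). It was called lower without that sample (limma adjusted p = 0.0125), by limma-voom with all samples (adjusted p = 0.0476) and with rod scaling. Its paralog *Kif21a* was not called, at 0.05.

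Of the remaining kinesins, *Kif22*, which acts on chromosome arms in dividing cells, was at 4.60, 5.29 and 4.72 RPKM in WT and 3.70, 3.49 and 4.48 RPKM in *Mll1KO*. The groups were separated by little, since *Mll1KO* sample c lay close under the lowest WT sample, and the call (log2 difference -0.27, SE 0.08, limma adjusted p = 0.0403) was kept in 6 of the 14 alternative settings. Only without *Mll1KO* sample c did it hold among the fits with 1 sample less, where the limma adjusted p ran from 0.0128 to 0.14. The microtubule depolymerase gene *Kif2a* had a log2 difference of -0.11 and was not called. The kinesin-14 genes, whose motors walk to minus ends, had positive differences of 0.12 for *Kifc1*, 0.09 for *Kifc2* and 0.18 for *Kifc3* with the authors' scaling, which turned negative with rod scaling. With all samples and the authors' scaling they were not called by limma (2 of 3 had an unadjusted p under 0.05), with *Kifc3* at a limma adjusted p of 0.0705. *Kifc3* was called higher by limma-voom, with median-ratio and upper-quartile factors and without WT sample c. *Kifc2* was called lower with rod scaling. Of the 50-base stretches of *Kifc1*, 39.7% occur in transcripts of other genes, so its value is uncertain. *Kif1bp*, which binds kinesin motor domains, had a difference of -0.01.

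Cytoplasmic dynein gave calls in 2 of 11 subunit genes, beside 23.3% of all genes. *Dync1h1*, the heavy chain that holds the motor, was at 120.4, 126.2 and 123.0 RPKM in WT and 111.4, 115.5 and 102.8 RPKM in *Mll1KO*. All *Mll1KO* samples were below WT (log2 difference -0.165, SE 0.05, limma adjusted p = 0.0358), a call that was lost with median-ratio factors. It held without WT sample a or *Mll1KO* sample b and was lost without any of the other samples (limma adjusted p 0.0278 to 0.129). *Dync2li1*, a light intermediate chain of the ciliary dynein-2, was at 21.1, 22.6 and 21.5 RPKM in WT and 18.6, 19.2 and 19.1 RPKM in *Mll1KO*. Its groups were well apart (log2 difference -0.18, SE 0.04, limma adjusted p = 0.0132), and of the alternatives tried the one without WT sample b ended the call, at a limma adjusted p of 0.063. The heavy chain of the same complex, *Dync2h1*, was at 6.94 ± 0.133 RPKM in WT and 6.99 ± 0.238 RPKM in *Mll1KO* (SD, n = 3), with overlap. Among the light chains *Dynll2* was the most abundant dynein gene, at 145.9, 166.0 and 169.5 RPKM in WT and 170.2, 168.0 and 179.3 RPKM in *Mll1KO*, and its groups overlapped. *Dynlrb1*, a roadblock light chain, was at 114.2, 97.9 and 97.1 RPKM in WT and 93.8, 87.2 and 90.5 RPKM in *Mll1KO*. WT sample a stood above the other WT samples, and the difference of -0.18 was not called (SE 0.06, limma adjusted p = 0.0608). It was called lower with limma-voom (adjusted p = 0.0408), with a replicate block (0.0347), without WT sample c (0.0478) and with rod scaling. *Dynlt3*, the X-linked member, was at 12.8 ± 0.611 RPKM in WT and 12.7 ± 0.727 RPKM in *Mll1KO* (SD, n = 3).

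Of the 6 dynactin genes analysed, 1 was called, beside 23.3% of all genes. *Dctn1*, which encodes the p150 subunit that binds dynein and microtubules, had the highest mean RPKM of all 47 members in WT, with a WT range that overlapped that of *Dynll2*. It was at 160.3, 165.7 and 159.4 RPKM in WT and 138.3, 142.6 and 137.5 RPKM in *Mll1KO*, 86.2% of WT with no overlap (log2 difference -0.21, SE 0.04, limma adjusted p = 0.00392). *Dctn2*, the dynamitin gene, was at 73.7 ± 1.83 RPKM in WT and 72.5 ± 1.76 RPKM in *Mll1KO*, and *Dctn3* at 57.4 ± 4.18 and 55.5 ± 0.747 RPKM (SD, n = 3). The groups of both overlapped, as did those of *Dctn4*, *Dctn5* and *Dctn6*.

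The mean levels in WT spanned 1.64 RPKM for *Kif17* to 161.8 RPKM for *Dctn1*, with a median of 23.99 RPKM beside 9.53 RPKM for all genes. The 7 members with a WT mean above 100 RPKM were *Dctn1*, *Dynll2*, *Klc1*, *Kif1a*, *Dync1h1*, *Kif21b* and *Dynlrb1*. Among kinesin heavy chains the order was *Kif1a*, *Kif21b*, *Kif1b*, *Kif5a* and *Kif5c*, and each of these was above the next in all WT samples. *Kif19a* came 12th of the 24 kinesin heavy chains, between *Kif3c* and *Kif5b*, and its WT range overlapped both. Its samples varied more than is usual for the family: the coefficient of variation in WT was 9.4% for *Kif19a* and had a median of 3.8% over the other members. Among light chains and associated proteins *Klc1* was apart from the rest, while *Klc3*, *Kifap3* and *Klc4* did not differ beyond their spread.

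The share of each paralog in the summed RPKM of its set does not depend on how libraries are scaled, and is a description from the same comparison. *Kif5a* was 51.5, 48.7 and 51.3% of the KIF5 sum in WT and 47.6 to 50.8% in *Mll1KO*, and the shares of all 3 KIF5 genes, all 4 light chains and all 3 KIF3 genes overlapped between the groups. Among the sets compared here, the dynein intermediate chains had the largest shift. Not every paralog pair was among these sets, and *Kif26a* with *Kif26b* was not. By group means *Kif26a* made up 2.07 of 4.95 RPKM of that pair in WT and 1.47 of 4.21 RPKM in *Mll1KO*, a larger shift. *Dync1i1* was 52.7, 50.2 and 52.9% of the intermediate chain pair in WT and 55.9, 55.4 and 56.3% in *Mll1KO*, a shift of 3.93 percentage points with no overlap. Within KIF1, the share of *Kif1a* was 62.3, 61.7 and 61.0% in WT and 60.1, 59.2 and 59.2% in *Mll1KO*, and those of *Kif1b* and *Kif1c* were higher by 1.48 and 0.69 points. These shares did not overlap either. *Dync1li1*, *Kif21a* and *Dynll1* had shares that overlapped between the groups.

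**Figure D3:**
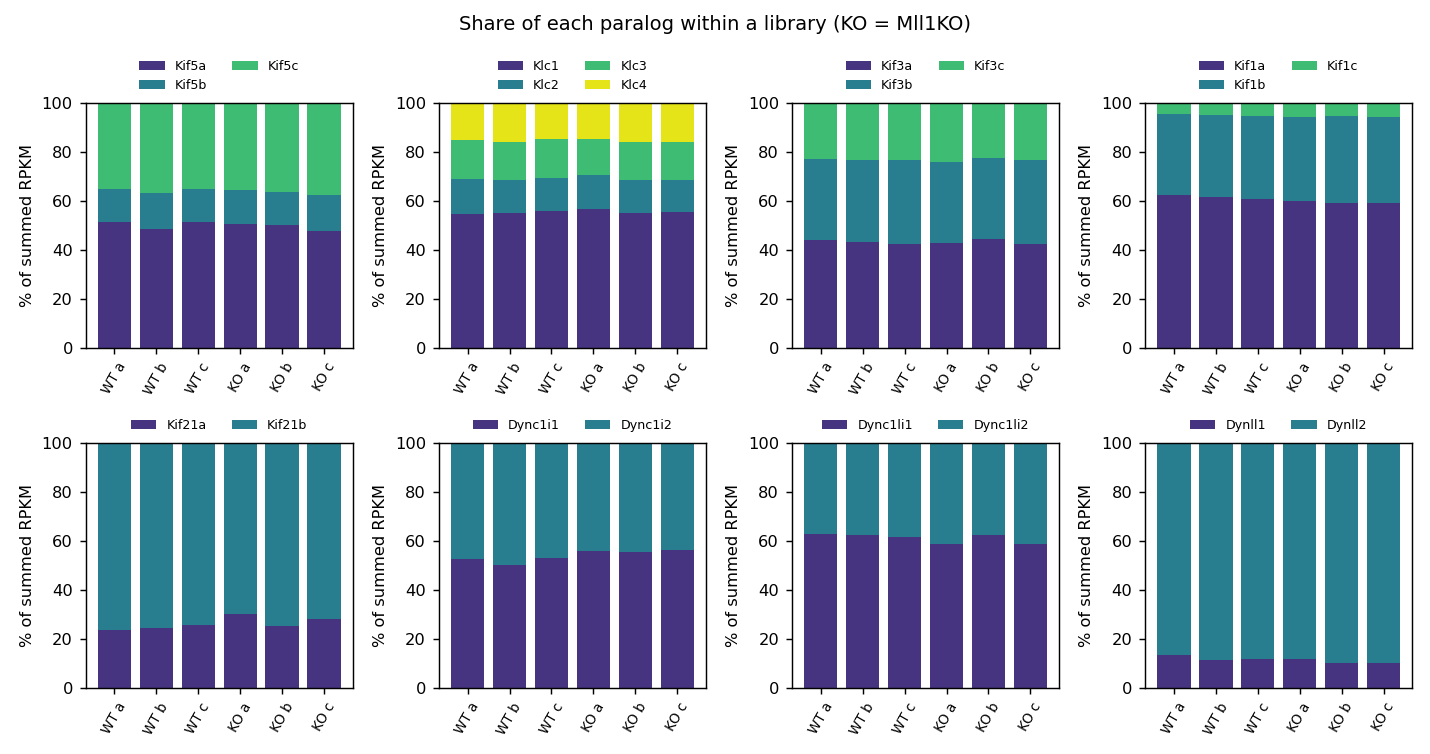
Share in percent (y axis) of each paralog in the summed RPKM of its set, for each of the 6 libraries (KO stands for *Mll1KO*). *Dync1i1* holds 50.2 to 52.9% of the intermediate chain pair in WT and 55.4 to 56.3% in *Mll1KO*, while the KIF5, KLC and KIF3 shares overlap between the groups.

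The genes that work with the motors were described from lists. Of 35 motor adaptors and activators analysed, 6 were called lower and 2 higher, a share of 22.9% that is close to the 23.3% of all genes, with a median log2 difference of -0.05 beside -0.03 over all genes. The lowest was *Trak2*, an adaptor that couples mitochondria to motors, at 50.2, 49.6 and 46.6 RPKM in WT and 38.2, 40.0 and 40.0 RPKM in *Mll1KO*. Its groups were well apart (log2 difference -0.30, SE 0.04, limma adjusted p = 0.000995). The highest was *Ccdc64*, now named *Bicdl1*, a dynein adaptor, at 49.4 to 50.3 RPKM in WT and 52.8 to 57.1 RPKM in *Mll1KO* (log2 difference 0.15, SE 0.04, limma adjusted p = 0.025), which turned to -0.17 with rod scaling. Its call was lost without WT sample b or c or *Mll1KO* sample b or c (limma adjusted p up to 0.0995), and the list then gave 3 genes called lower and 0 higher. With median-ratio factors the list gave 3 lower and 2 higher, beside 1126 and 1276 of all 11339 genes. Of 9 other dynactin and dynein-2 subunits, 1 was called (11.1% beside 23.3%), the dynein-2 intermediate chain *Wdr60*, at 20.4 to 22.4 RPKM in WT and 18.1 to 19.4 RPKM in *Mll1KO* (log2 difference -0.18, SE 0.05, limma adjusted p = 0.0236). That call was lost with median-ratio factors and without WT sample a or b or *Mll1KO* sample b or c (limma adjusted p up to 0.0948). *Capza2*, a capping protein subunit, was the highest of that list at 0.055 and was not called.

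Microtubule-associated proteins, which coat the tracks of the motors, had 7 of 14 genes called lower and 1 higher, beside 14.5% and 8.81% of all genes, with a median of -0.16 beside -0.03. *Dcx*, doublecortin of young neurons, was at 1.82, 2.11 and 1.70 RPKM in WT and 1.02, 1.09 and 1.15 RPKM in *Mll1KO*, with no overlap (log2 difference -0.46, SE 0.06, limma adjusted p = 0.000828). The related kinase gene *Dclk1* was higher, at 7.49 to 8.02 RPKM in WT and 9.17 to 9.63 RPKM in *Mll1KO* (log2 difference 0.25, SE 0.05, limma adjusted p = 0.0058), which turned to -0.04 with rod scaling. The others called lower were *Map1a*, *Map1b*, *Map2*, *Map6*, *Map7* and *Dclk2*. Of the 20 axonemal dynein genes 8 were analysed, 1 was called (12.5% beside 23.3% of all genes), *Dnaic2*, and the median was -0.03. The heavy chain *Dnah1* was the highest of them at 0.01, with 0.47 to 0.53 RPKM in WT. Of the 14 genes of the multiciliated cell list, 12 were not analysed here. The sum of the other 2 was 10.3, 11.1 and 10.3 RPKM in WT and 9.44, 7.97 and 8.31 RPKM in *Mll1KO*. The more abundant of them, *Rsph9*, a radial spoke gene, was at 6.10, 6.34 and 5.88 RPKM in WT and 4.41, 4.24 and 4.17 RPKM in *Mll1KO* and was called lower (log2 difference -0.43), while *Foxj1*, the master regulator of motile cilia, had a difference of -0.05 and was not called. The part of these genes in the *Kif19a* result was not tested.

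Markers of retinal cell types differed between the groups as well, and their part in the motor gene results was not tested. For comparison with the counts in these lists, 14.5% of all genes were called lower and 8.81% higher. Of the ganglion cell markers 11 of 12 analysed were called lower, with a median log2 difference of -0.50. Their summed RPKM was 787.0, 750.2 and 784.6 in WT and 615.4, 578.5 and 535.6 in *Mll1KO*, and the most abundant, *Sncg*, was at 149.3 to 166.3 RPKM in WT and 96.1 to 117.8 RPKM in *Mll1KO*. Of the horizontal cell markers 6 of 7 were called lower (median -0.40), with sums of 183.9, 185.9 and 180.4 RPKM in WT and 129.4, 132.8 and 142.9 RPKM in *Mll1KO*. Their most abundant gene, *Sept4*, was at 54.5 to 56.0 RPKM in WT and 40.7 to 43.2 RPKM in *Mll1KO*. Of the bipolar cell markers 8 of 12 were called lower (median -0.315), and their sums were 601.9, 592.7 and 581.7 RPKM in WT and 481.5, 486.7 and 494.1 RPKM in *Mll1KO*. Of the amacrine cell markers 5 of 10 were called lower and 2 higher (median -0.11), with 4 higher when *Mll1KO* sample b was left out, 4 higher with median-ratio and with upper-quartile factors, and 7 lower and 0 higher with rod scaling. Their sums were 505.1, 508.8 and 523.5 RPKM in WT and 445.8, 419.5 and 436.5 RPKM in *Mll1KO*. For the ganglion, horizontal and bipolar cell lists the sum in every *Mll1KO* sample was below that in any WT sample. For the amacrine list this rests on its most abundant gene, *Calb2*, and without it the sums overlapped, at 262.9, 249.3 and 260.7 RPKM in WT and 246.3, 242.9 and 272.3 RPKM in *Mll1KO*.

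Photoreceptor and glial markers lay on the other side. Of the rod markers 10 of 13 were called higher and 1 lower (median 0.255), and their summed RPKM in *Mll1KO* was 125.7% of that in WT. Of the cone markers 7 of 10 were called higher and 1 lower (median 0.28), with a sum of 112.6% of WT. *Gnb3*, the most abundant of them, was at 193.2 to 204.5 RPKM in WT and 191.1 to 205.4 RPKM in *Mll1KO* and was not called. Of the Müller glia markers 6 of 10 were called higher (median 0.34), with a sum of 131.4% of WT and *Glul* as the most abundant gene. Of the cycling cell list 5 of 17 genes were analysed and 1, *Mcm6*, was called lower, a call lost when either *Mll1KO* sample c or WT sample a was left out, with summed RPKM of 22.65 to 23.48 in WT and 21.60 to 24.33 in *Mll1KO*, so the sums overlapped. The 12 others were not analysed here. Of the list for red blood cells and lens, 5 genes were analysed and 0 were called by limma (1 at an unadjusted p under 0.05, 0 by limma-voom, and 4 higher without WT sample c), with sums of 107.6, 87.5 and 214.2 RPKM in WT and 166.4, 190.3 and 219.6 RPKM in *Mll1KO*. These directions hold for the authors' scaling. Rod scaling, which sets the rod sums equal by construction, lowered all differences: the rod list then had 1 gene called higher and 4 lower, the cone list 3 higher and 3 lower (median -0.01) and the Müller glia list 3 higher and 4 lower (median 0.02).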

How the data were processed

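RNA was sequenced from 3 *Mll1KO* and 3 WT retinal samples at P14. The authors aligned the reads with STAR 2.0.4b to mm10, counted them with featureCounts 1.45 of Subread, and deposited RPKM, scaled to gene length and library total. The log2 fold changes, mean log2 CPM values, p-values and FDR of the authors' own edgeR comparison (3.17.9 in the sample labels, another version in the paper) are in the same deposited table and were not used. The table held 11404 lines for 11339 genes, and 18 symbols turned into dates were restored from gene IDs. Reads and gene lengths were recovered together, as the length that gives whole reads within 0.05. All 11339 genes had one, 6054 of them equal to the GENCODE vM21 exon length, and 260 allowed more than 1 length.

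Groups were compared with limma 3.58.1 (R 4.3.3) on log2(RPKM + 1) with a variance trend, no other term and Benjamini-Hochberg adjustment over all genes. The procedure was tested on simulated reads. Named were *Kmt2a*, *Kif19a*, the 8 lowest and 8 highest members called without overlap, the 3 most abundant of each class, and the ends of each pathway list, with the other members by a fold change, a level or a count. *Kif21b*, the neighbours, *Hspa8*, *Mab21l2*, *Xist*, the most abundant markers, *Kif26b*, *Dync2h1* and *Dynlt3* were added after their values were seen. The members and lists were chosen with earlier results of these data known. Alternatives were other pseudocounts, a filter, 3 scalings, limma-voom on recovered reads, a replicate block and leaving out each sample. Exon overlaps used GENCODE vM21. Calculations also used Python 3.11.15, numpy 2.4.6, pandas 2.3.3 and matplotlib 3.10.9.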

Additional observations from a re-analysis of the deposited data

How the results depend on the processing

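The log2 difference of *Kif19a*, -1.85 with all samples and a pseudocount of 1, was -2.05 with a pseudocount of 0.1, -1.31 with a pseudocount of 5, -2.14 with rod scaling and -2.09 with limma-voom on recovered reads, and it ran from -1.92 to -1.79 when 1 sample was left out. The pseudocount sets how far a gene of few RPKM is pulled towards 0. Members other than *Kif19a* called lower were 9, with 5 under median-ratio and 5 under upper-quartile factors, 43 under rod scaling, 12 with limma-voom, and 4 to 8 when 1 sample was left out, the 4 without WT sample b. *Kif19a* was chosen by this difference, so its own call is no test; counted in, it makes these 6, 6 and 44 under the 3 scalings. Members called higher were 1, with 3 under median-ratio and 3 under upper-quartile factors, 0 under rod scaling, and 0 to 1 when 1 sample was left out. All genes called were 2643, with 9887 under rod scaling, which shifts every gene, and 1704 to 2536 with 1 sample less. Those called lower were 1644, with 1126 under median-ratio factors, 1190 under upper-quartile factors and 1823 with limma-voom. They were 9689 under rod scaling and 1030 to 1559 with 1 sample less. The 15 genes of the pathway lists called lower became 63 under rod scaling, and the 3 called higher became 0 there and 1 to 3 with 1 sample less. Other pseudocounts and the filter on mean RPKM kept these counts of members at 9 and 1.

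Same-letter samples of the groups did not deviate together (correlations -0.04, -0.19 and -0.007). The letters are not known to pair the samples, and such correlations from 3 samples per group cannot exclude a pairing. With the letter as a replicate block 8 of these members were called lower, 0 higher, and 2242 genes in all.

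Some differences changed sign, and the cause was not tested beyond the shift that a scaling gives to all genes. Rod scaling gave -0.033 for *Kif17*, -0.18 for *Kif1c*, -0.27 for *Kif21a*, -0.14 for *Kifc1*, -0.23 for *Kifc2*, -0.13 for *Kifc3*, -0.17 for *Dync1i1*, -0.30 for *Dync1li2*, -0.28 for *Dync2h1*, -0.22 for *Dynll2*, -0.17 for *Ccdc64*, -0.25 for *Capza2*, -0.044 for *Dclk1* and -0.10 for *Dnah1*. Median-ratio factors gave 0.0024 for *Klc4*, 0.002 for *Kif16b*, 0.028 for *Kif1b*, 0.019 for *Kif1bp*, 0.023 for *Dynlt3* and 0.011 for *Dctn2*. Upper-quartile factors gave 0.024 for *Kif1b*, 0.015 for *Kif1bp*, 0.020 for *Dynlt3* and 0.0072 for *Dctn2*. Over the fits with 1 sample less, differences that crossed 0 ran as follows: *Klc4* -0.057 to 0.0021, *Kif16b* -0.074 to 0.0092, *Kif1b* -0.028 to 0.011, *Kif1bp* -0.028 to 0.0082, *Dync1li2* -0.0135 to 0.0474, *Dync2h1* -0.012 to 0.031, *Dynlt3* -0.0435 to 0.0325, *Dctn3* -0.098 to 0.0057 and *Dnah1* -0.014 to 0.026. Of the 56 genes compared singly over the settings, *Kif17*, *Ccdc64* and *Dclk1* were called with the authors' scaling and changed sign, all with rod scaling. Genes called higher in the whole table fell from 999 to 198 there. Few reads stand behind *Kif17*, *Kif22* and *Kif26a*, with 137 to 330 in a library, and *Dnah1*, with 108 to 152. *Kif9*, with 217 to 371, and *Kifc1*, with 221 to 299, had few as well.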
